A study of Bos taurus with 33 samples.

Results

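Transcripts of 6 genes that build, cross-link or bind the hyaluronan matrix of the expanding cumulus were followed in oocytes and cumulus cells (CC) of beef cows. They were hyaluronan synthase 2 (HAS2), TNF alpha induced protein 6 (TNFAIP6), pentraxin 3 (PTX3), versican (VCAN), hyaluronan and proteoglycan link protein 1 (HAPLN1) and the hyaluronan receptor CD44. The 6 were taken by gene symbol, out of 17543 genes listed in either of the deposited tables. All 6 were listed in both tables.

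After the preovulatory gonadotropin surge, CC secrete a gel of hyaluronan that pushes them apart and carries the oocyte out of the follicle. HAS2 spins hyaluronan at the cell surface, TNFAIP6 moves heavy chains of the serum protein inter-alpha-inhibitor onto it, and PTX3 binds those heavy chains and ties the strands together. VCAN is a large chondroitin sulfate proteoglycan that binds hyaluronan, HAPLN1 locks proteoglycan to hyaluronan, and CD44 anchors hyaluronan to the cell membrane.

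Each library held RNA from 4 cumulus-oocyte complexes, either the 4 oocytes or their CC, aspirated from the largest follicle of suckled postpartum Hereford-Angus crossbred cows. All cows were given gonadotropin releasing hormone (GnRH1) and later prostaglandin F2 alpha. Small follicles (up to 11.7 mm) and large follicles (from 12.7 mm) came from cows that had not shown estrus and received a second injection (GnRH2) to bring on the surge. Spontaneous follicles (11.7 to 14 mm) came from cows in estrus, which received no GnRH2 and surged on their own. Thus size and the source of the surge both separate spontaneous from small pools. The study reported a different mean diameter for spontaneous and large follicles too. Neither comparison with spontaneous pools therefore varies the source of the surge alone. There were 6 small, 6 large and 4 spontaneous oocyte pools, and 6, 6 and 5 CC pools. Complexes were collected about 20 h (sample labels) or about 23 h (protocol) after GnRH2 or estrus. Every pool was therefore collected after the surge, and no level from before it was measured here. Oocytes were stripped of CC by pipetting and hyaluronidase.

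Transcript abundance is given as CPM, the number of reads per 1000000 assigned to genes. Depth ran from 7664375 to 17934916 such reads among oocyte pools and from 1911600 to 5772431 among CC pools. A count of 0 allows up to 3 reads, which equal 0.167 to 0.391 CPM by oocyte pool and 0.52 to 1.57 CPM by CC pool, for counting error only. The zona pellucida transcript ZP2 averaged 4379 CPM in oocyte pools and reached at most 0.78 CPM in a CC pool. The inhibin subunit INHA averaged 2262 CPM in CC and 42.2 CPM in oocyte pools. CC pools also held theca markers summing to 602 to 2213 CPM, led by lumican (LUM, mean 417 CPM). Of the other theca markers, INSL3 averaged 410 CPM in CC (108 to 1162 CPM), and the androgen enzyme CYP17A1 was at most 0.781 CPM. White blood cell markers in CC summed to 48.2 to 324 CPM, endothelial markers to 7.38 to 72 CPM and red blood cell markers to at most 4.18 CPM. Small replicate 3 was the shallowest pool of both cell types, and the study treated the small oocyte library numbered 3 as outlying. It was kept here, and calls in small oocyte pools also had to hold without it.

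The matrix genes fell into different patterns in the 2 cell types. VCAN, TNFAIP6 and PTX3 were CC transcripts, with every CC pool above every oocyte pool. HAS2 and CD44 had a higher mean in oocyte pools, with overlap between the cell types, and HAPLN1 passed the low-value filter in neither. Of 11431 genes compared, 13.4% had every CC pool above every oocyte pool, 22.9% had every oocyte pool above every CC pool, and 53.7% had the higher mean in oocytes. The 2 tables were scaled separately, so these levels are described without a test.

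**Figure D1:**
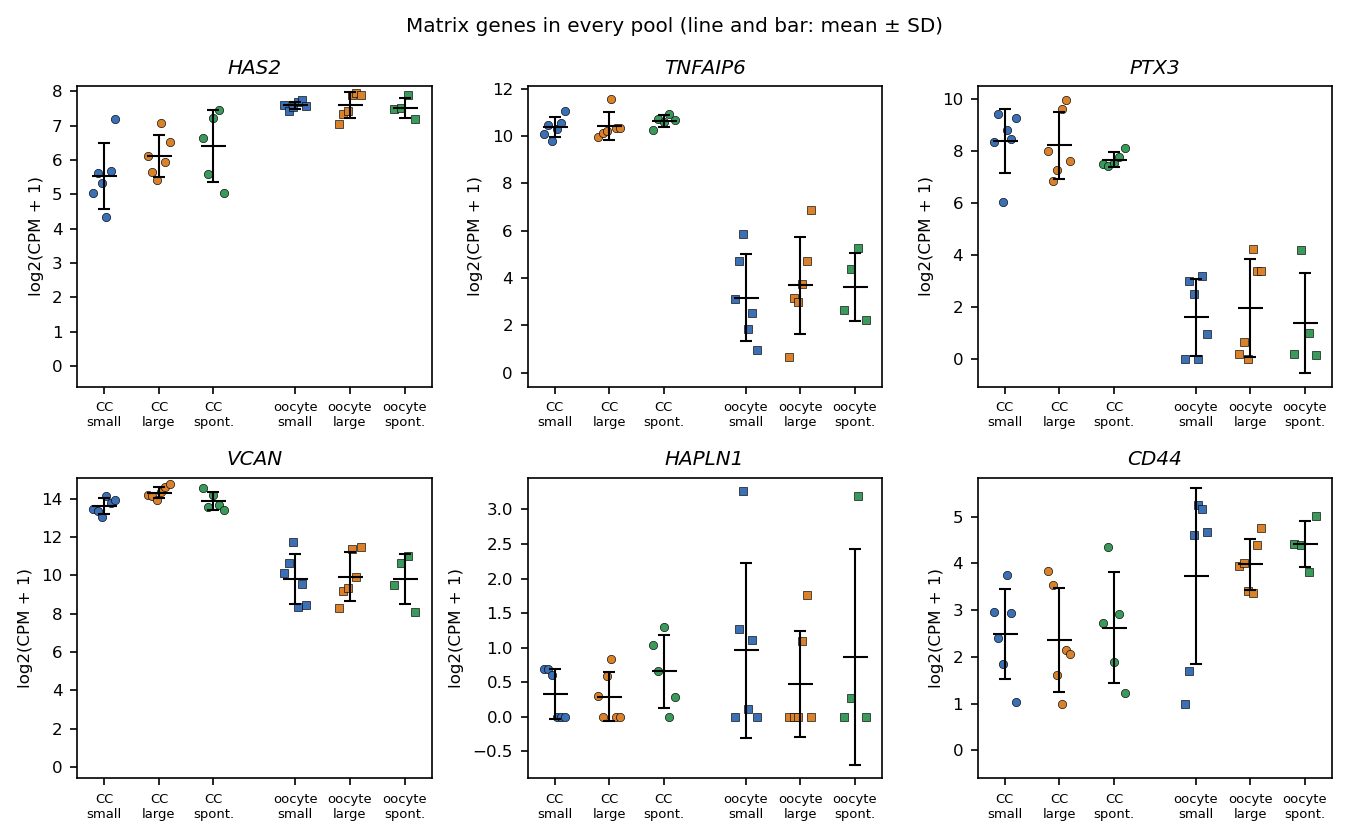
CPM of the 6 matrix genes on a log2(CPM + 1) axis, with 1 point per pool (circles, CC; squares, oocytes) by follicle classification and a line and bar for the mean and SD. VCAN, TNFAIP6 and PTX3 are higher in every CC pool than in any oocyte pool, whereas 11 of 16 oocyte pools lie above the highest CC pool for HAS2.

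HAS2, the enzyme that makes the hyaluronan itself, averaged 193 ± 34.5 CPM (SD, n = 16) in oocyte pools and 75.5 ± 48.2 CPM (SD, n = 17) in CC pools. The oocyte mean was 255% of the CC mean. Oocyte pools ran from 132 to 248 CPM and CC pools from 19.4 to 176 CPM, so that 11 of 16 oocyte pools exceeded the highest CC pool and 13 of 17 CC pools lay below the lowest oocyte pool. HAS2 was also steadier among oocyte pools. Its coefficient of variation (CV) was 17.9% there and 63.9% in CC. Among genes within a factor of 2 of its mean CPM, the median CV was 23.2% in oocytes (2061 genes) and 25.6% in CC (2828 genes). The CV of HAS2 was above that of 17.5% of those genes in oocytes and 98.1% in CC. The related synthase HAS3, which was not a member, likewise averaged 16.3 CPM in oocytes and 6.13 CPM in CC.

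VCAN averaged 16662 ± 5517 CPM (SD, n = 17) in CC and 1269 ± 1009.8 CPM (SD, n = 16) in oocytes. In CC it took 0.836 to 2.81% of all reads on genes. The lowest CC pool (8357 CPM) stood above the highest oocyte pool (3427 CPM). TNFAIP6 averaged 1477 ± 516 CPM in CC and 20.8 ± 29.6 CPM in oocytes, and PTX3 averaged 352 ± 264 CPM and 4.79 ± 6.14 CPM (SD, n = 17 and 16). Oocyte means were thus 1.41% of the CC mean for TNFAIP6, 1.36% for PTX3 and 7.62% for VCAN.

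Traces of CC in oocyte libraries were gauged with 11 cumulus and granulosa markers retained in CC. Their oocyte means were 1.65% (the FSH receptor FSHR) to 91.8% (PRSS35) of their CC means, with a median of 4.49%, and 8 of the 11 were under 10%. TNFAIP6 and PTX3 lay just below the lowest of these shares, VCAN above the median, and HAS2 and CD44 above all of them. The sum of all 13 cumulus and granulosa markers found by symbol, retained or not, ranged from 67.6 to 414 CPM over oocyte pools. Over CC pools it ranged from 2989 to 8990 CPM. Across the 16 oocyte pools, log2(CPM + 1) of that sum and of TNFAIP6 correlated at Pearson r = 0.89 (Spearman rho = 0.85) and at r = 0.82 without the 2 pools farthest from the median. VCAN gave r = 0.85 (rho = 0.84, and r = 0.77 without those 2). HAS2 gave r = 0.54, PTX3 r = 0.52 and CD44 r = -0.027. All points share a library and a CPM total, and the part of carried-over CC RNA in the oocyte values was not tested.

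**Figure D2:**
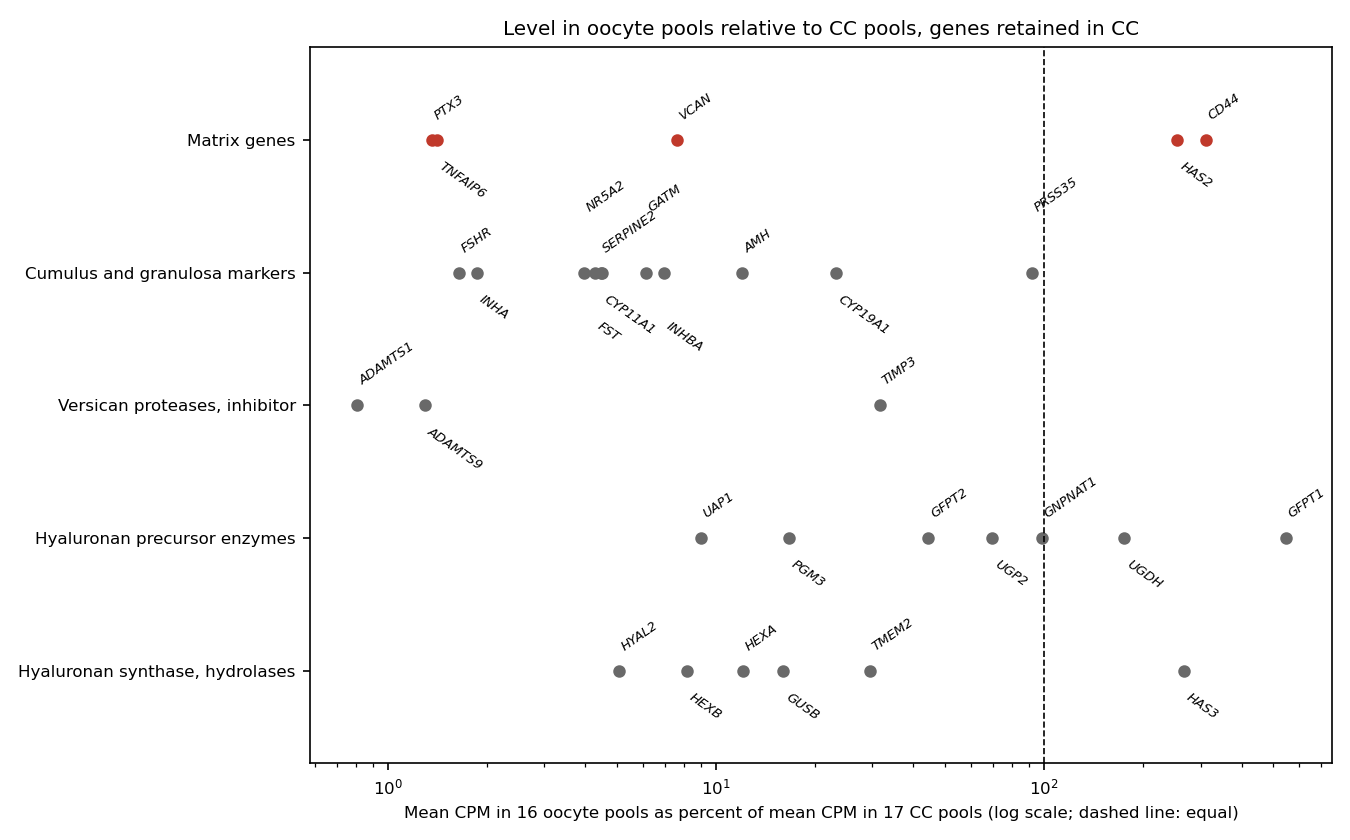
Mean CPM in 16 oocyte pools as a percent of the mean in 17 CC pools (log axis), for genes retained in CC, in 5 groups by row. PTX3, TNFAIP6 and VCAN sit at 1.36, 1.41 and 7.62%, in or near the range of most cumulus and granulosa markers, and HAS2 and CD44 sit at 255 and 312%, to the right of the dashed line of equal means.

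The levels of TNFAIP6 and VCAN were compared across the pools of each cell type. Their log2(CPM + 1) values correlated at r = 0.89 (rho = 0.88) over 16 oocyte pools and at r = 0.12 (rho = 0.047) over 17 CC pools. The ratio of VCAN to TNFAIP6 CPM differed as well. It was 6.75 to 21.6 in CC (median 10.4) and 25.1 to 521 in oocytes (median 86.3), with no overlap between the cell types. Whether oocytes make VCAN was not tested.

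**Figure D3:**
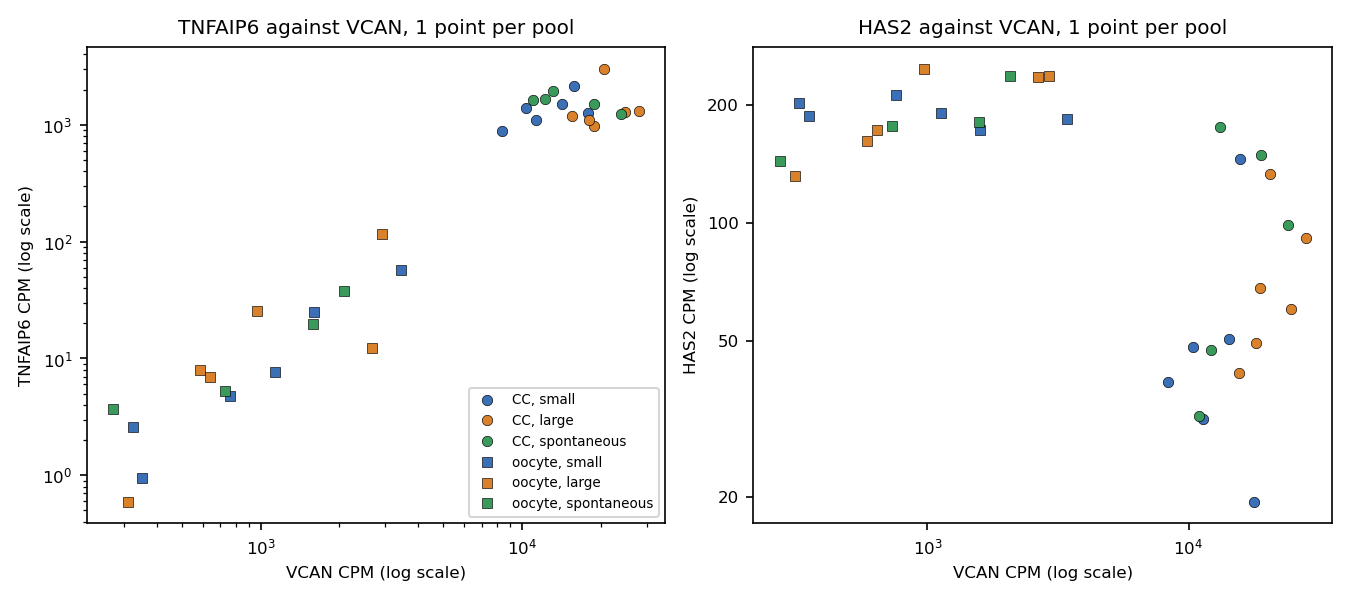
CPM of TNFAIP6 (left) and HAS2 (right) against CPM of VCAN, both on log axes, with 1 point per pool, colored by follicle classification (circles, CC; squares, oocytes). TNFAIP6 climbs with VCAN among the 16 oocyte pools (r = 0.89 on log2(CPM + 1)), and HAS2 ranges from 132 to 248 CPM over a VCAN range of 272 to 3427 CPM (r = 0.59, rho = 0.55).

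CD44, the membrane anchor of the matrix, was scarce in both cell types. It averaged 18.9 ± 10.6 CPM (SD, n = 16) in oocytes and 6.06 ± 5.16 CPM (SD, n = 17) in CC, so that the oocyte mean was 312% of the CC mean. CC pools ran from 0.976 to 19.5 CPM. Small oocyte replicates 1 and 2 held 0.973 and 2.22 CPM, whereas the other 14 oocyte pools held 9.38 to 36.8 CPM. The first of those 2 lay just below the lowest CC pool, the second within the CC range, and 9 oocyte pools lay above that range. Reads of CD44 may not be separable from those of a long noncoding RNA that overlaps it in the bovine assembly ARS-UCD2.0, and counting by strand is not given in the sources used here. Of the other hyaluronan receptors, HMMR, which also works at the mitotic spindle, averaged 346 CPM in oocytes and 30.9 CPM in CC. The scavenger receptor STAB2 averaged 39.3 CPM in oocytes and was at most 0.764 CPM in a CC pool.

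HAPLN1, the link protein, passed the low-value filter in neither table. It had 0 reads in 7 of 17 CC pools and in 8 of 16 oocyte pools. The highest CC pool held 1.45 CPM, and the highest oocyte pools were small replicate 3 at 8.61 CPM and spontaneous replicate 3 at 8.19 CPM. It was left out of the limma comparisons, and exact permutation tests of its mean CPM gave p of 0.195 to 0.952 over the 6 comparisons. In ARS-UCD2.0 it is the coding neighbor of VCAN and overlaps a long noncoding RNA. Of the other lecticans and link proteins, only HAPLN3 was retained in CC (mean 11.2 CPM).

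The question behind the classes was whether the status of the follicle at the surge changes the transcripts of the complex. Between follicle classifications, log2(CPM + 1) was compared by limma in the 5 retained members, with 6 comparisons over both cell types. A fold change is a difference on that scale, second class minus first, and a call is a nominal p of 0.01 or less. P-values measure the spread between pools, and in pools fewer cells of a type cannot be told apart from less RNA per cell. There was 1 call in the 30 member tests, VCAN in CC of small versus large follicles, and it did not survive adjustment for multiple testing.

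**Figure D4:**
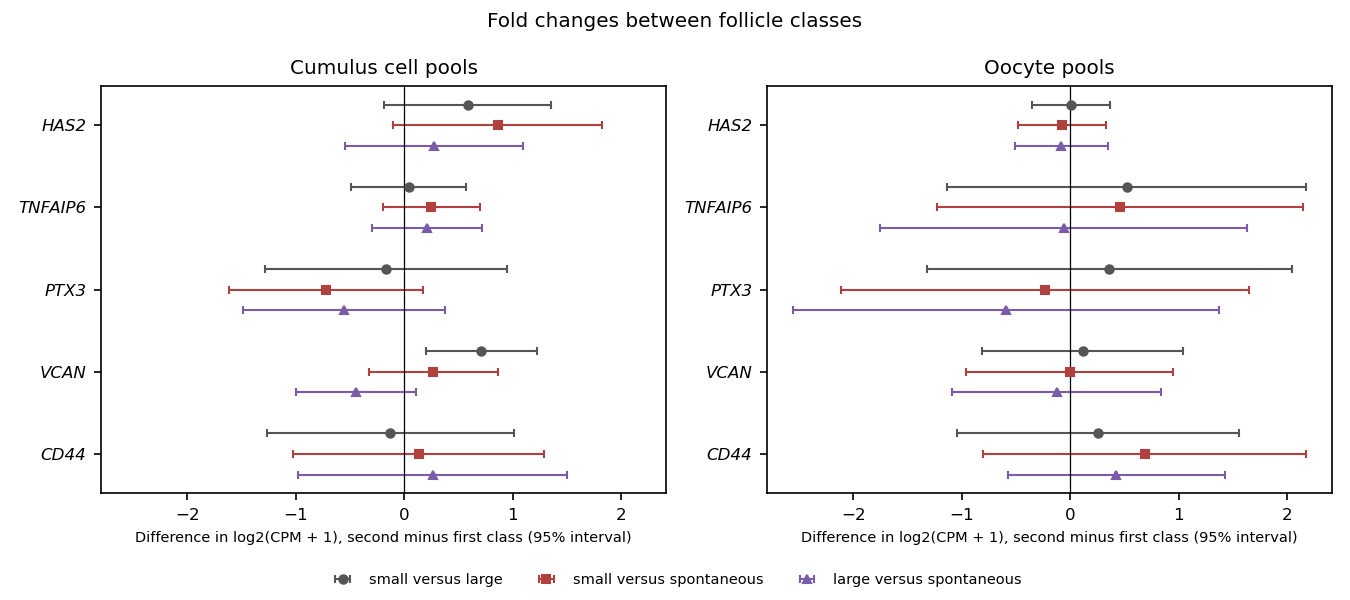
Differences in mean log2(CPM + 1) between follicle classifications (points) with 95% intervals from limma (bars) for the 5 retained members in CC (left) and oocytes (right). The interval for VCAN in CC of small versus large follicles, 0.20 to 1.22, is the only 1 of the 30 that leaves out 0.

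VCAN was higher in CC of large than of small follicles. Small pools ranged from 8357 to 17839 CPM (median 12815), and large pools from 15551 to 28109 CPM (median 19736). The 5 spontaneous pools held 23964, 12225, 18905, 13162 and 11011 CPM. Only small replicates 4 and 6 reached into the range of the large pools, and the spontaneous pools spread over both. Means were 12999 ± 3582 CPM in small (SD, n = 6), 20998 ± 4630.3 CPM in large (SD, n = 6) and 15853 ± 5453 CPM in spontaneous pools (SD, n = 5). Large exceeded small by 1.62-fold in mean CPM, or 0.71 on the log2 scale (SE 0.25). The limma p was 0.00912 (adjusted p = 0.999), and the exact permutation test of mean CPM, two-sided, gave p = 0.00649, where the smallest possible p was 0.00216. Nominal calls were made for 0.813% of 9712 CC genes in this comparison and, as higher in large, for 0.69%, beside 1 of 5 members. VCAN gave r = 0.37 with log2 reads on genes over CC pools (rho = 0.25, r = 0.13 without the 2 farthest pools, n = 17). Median depth was 3276812 reads in small and 4121436 in large pools. Of 7 theca markers tested, 5 were higher in large pools and 2 had a limma p under 0.05, as did 388 of all 9712 genes. The part of depth and of these markers in the VCAN difference was not tested.

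The direction of the VCAN difference held in all 23 alternatives, but the call did not. Log2 differences of 0.59 to 0.81 were found when 1 pool was left out. The nominal p rose above 0.01 without small replicate 1, 2, 3 or 5 or large replicate 1, 4, 5 or 6, reaching at most 0.028. No call was made between spontaneous pools and either induced class. The difference was 0.27 from small (95% interval -0.32 to 0.87, adjusted p = 0.842) and -0.44 from large (-0.99 to 0.11, adjusted p = 0.753).

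**Figure D5:**
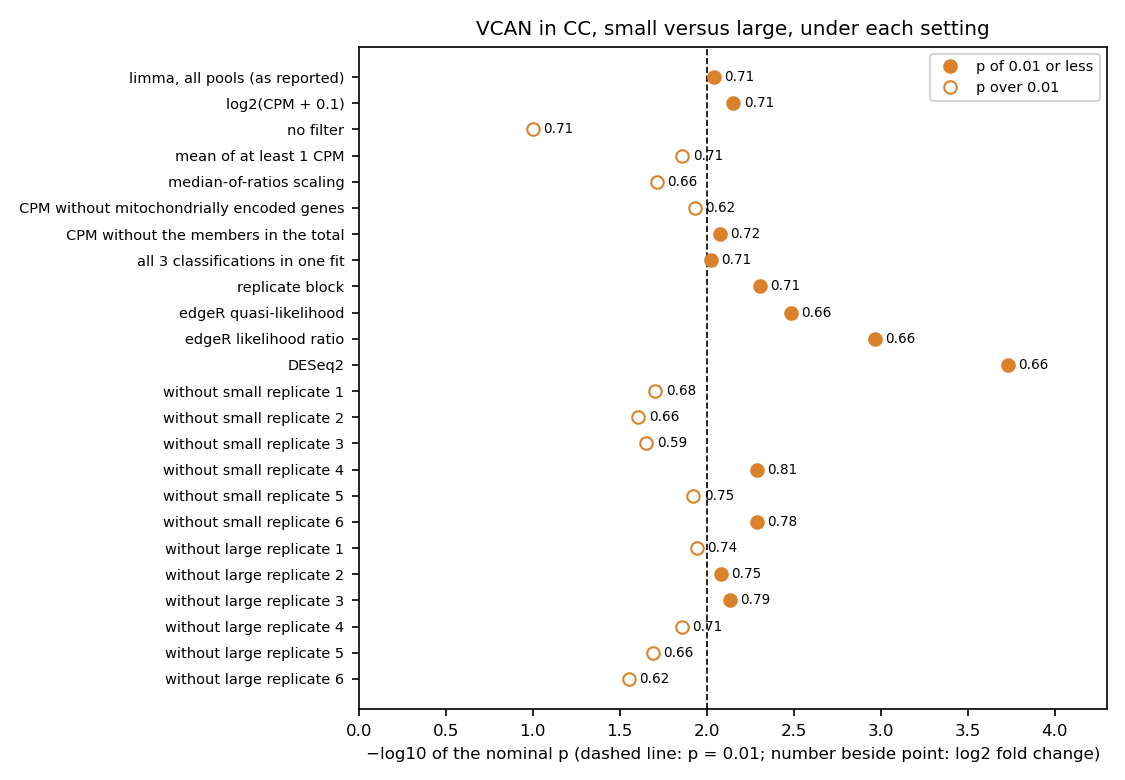
Minus log10 of the nominal p (x axis) for VCAN in CC of small versus large follicles, for limma on all pools and each of 23 alternatives (rows), with the log2 fold change beside each point. Filled points pass the nominal threshold of 0.01 (dashed line), and all fold changes lie between 0.59 and 0.81.

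HAS2 in CC ranged from 19.4 to 146 CPM in small pools (median 43.8) and from 41.5 to 134 CPM in large pools (median 64.3). Spontaneous pools held 98.8, 47.4, 149, 176 and 32.2 CPM. The class means, 55.8 ± 45.5, 74.2 ± 33.9 and 101 ± 62.4 CPM (SD, n = 6, 6 and 5), were ordered small, large, spontaneous, but their ranges overlapped throughout. The log2 differences were 0.58 from small to large, 0.86 from small to spontaneous and 0.28 between large and spontaneous pools (limma adjusted p = 0.999, 0.63 and 0.893). The first 2 tests turned on small replicate 6, at 146 CPM. Without it HAS2 was called in both, with a rise of 0.92 from small to large (limma adjusted p = 0.841) and of 1.19 from small to spontaneous (limma adjusted p = 0.3). Calls over all genes rose too without that pool. From small to large they went from 79 of 9712 to 113 of 9655 (106 higher in large). From small to spontaneous they went from 231 of 9712 to 313 of 9655 (300 higher in spontaneous). HAS2 also moved with depth. Its correlation with log2 reads on genes was r = 0.65 (rho = 0.70, r = 0.77 without the 2 farthest pools, n = 17), and the part of depth in these differences was not tested.

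TNFAIP6 in CC was called in no comparison. It ranged from 879.9 to 2128 CPM in small pools (median 1322) and from 976 to 3024 CPM in large pools (median 1239), and spontaneous pools held 1227, 1663, 1517, 1949 and 1622 CPM. Large replicate 4 was the highest of all, and the other 5 large pools lay below 4 of the 5 spontaneous pools. Log2 differences were 0.043, 0.25 and 0.21 from small to large, small to spontaneous and large to spontaneous. Their 95% intervals stayed within -0.49 to 0.72, so a 2-fold change lay outside each of them. TNFAIP6, like HAS2, was higher in deeper CC pools (r = 0.71, rho = 0.79, n = 17).

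PTX3 in CC had a spread that differed from class to class. Small pools ranged from 65.4 to 684 CPM (median 396) and large pools from 114 to 999 CPM (median 223). Spontaneous pools were close together at 178, 171, 183, 218 and 274 CPM. Their CV was 20.9%, against 53.9% in small and 90.5% in large pools. All 5 spontaneous pools lay below 5 of the 6 small pools, the exception being small replicate 3 at 65.4 CPM. Means were 411 ± 222 CPM in small and 205 ± 42.9 CPM in spontaneous pools (SD, n = 6 and 5), with a log2 difference of -0.72 that was not called (limma p = 0.108, adjusted p = 0.679; exact permutation p = 0.0736). Without small replicate 3 calls over all genes rose from 231 of 9712 to 269 of 9677. The PTX3 difference was then -1.18 and called (limma adjusted p = 0.0485). Genes with a limma adjusted p under 0.05 rose from 3 to 12 with that omission. On recovered reads with all pools kept, PTX3 was called at -1.11 by edgeR's quasi-likelihood test (adjusted p = 0.687) and by DESeq2 (adjusted p = 0.186). Those tests called 128 and 217 of 9712 genes. At 1911600 reads, small replicate 3 was the shallowest pool. PTX3 overlaps the coding gene VEPH1 in ARS-UCD2.0, and their reads may not be separable.

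CD44 in CC stayed low in every class. Small pools held 1.04 to 12.4 CPM (median 5.47), large pools 0.976 to 13.2 CPM (median 3.28), and spontaneous pools 5.64, 19.5, 2.72, 6.53 and 1.32 CPM. The classes overlapped almost wholly. Log2 differences of -0.13, 0.14 and 0.26 had 95% intervals of -1.27 to 1.01, -1.02 to 1.29 and -0.97 to 1.5, so a 2-fold rise lay inside each of them and a 2-fold fall inside the first 2. CD44 had r = 0.47 with summed white blood cell markers (rho = 0.42, n = 17), and these markers' part in its level was not tested.

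Beside VCAN, none of the members was called in CC with all pools. Limma called 0 of 5 in each comparison with spontaneous pools, and 0 had a nominal p under 0.05. Of all CC genes 2.38% were called against small and 1.66% against large pools. After adjustment 0.0309 and 0.0103% of CC genes stayed under 0.05 there, and 0% did in the other 4 comparisons. On recovered reads edgeR and DESeq2 called PTX3 against small pools and no member against large pools. Of all 9712 CC genes, edgeR's quasi-likelihood test, its likelihood ratio test and DESeq2 called 128, 202 and 217 against small pools. Against large pools they called 127, 178 and 199. No member had classes that did not overlap, as 0.247, 1.16 and 0.865% of CC genes did in the 3 comparisons and 0.258, 0.903 and 0.913% of oocyte genes. The median difference of the 5 members was 0.043, 0.25 and 0.21, and that of all CC genes 0.045, 0.16 and 0.11. Cumulus and granulosa markers in CC summed to 2989 to 5114 CPM in small, 3523 to 6393 CPM in large and 5168 to 8990 CPM in spontaneous pools. All 11 tested had a higher mean log2(CPM + 1) in spontaneous than in small pools. So did 221 of the 231 genes called there. With scaling by median of ratios 79 of 126 called genes did, and the median difference of all genes fell from 0.16 to 0.013. The part of the CPM total in the marker differences was not tested. INHA was called from large to spontaneous (0.89, limma adjusted p = 0.567), as was the estrogen-making aromatase CYP19A1 (1.74, adjusted p = 0.567). Of 7 theca markers tested from small to spontaneous, 5 had the higher mean in spontaneous pools (median difference 0.27), and only PDGFRA was called (1.24, limma adjusted p = 0.418, exact permutation p = 0.119). By edgeR's quasi-likelihood test and DESeq2 PDGFRA was not called (0.80 and 0.79). The part of these markers in the comparisons with spontaneous pools was not tested.

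In oocytes no matrix gene was called between classes. HAS2 was the most even, with small pools from 173 to 213 CPM (median 189), large pools from 132 to 248 CPM (median 205) and spontaneous pools at 177, 181, 237 and 144 CPM. The small pools lay inside the range of the large ones. Means were 192 ± 14.3, 198 ± 49 and 185 ± 38.5 CPM (SD, n = 6, 6 and 4). The 3 log2 differences, 0.009, -0.074 and -0.083, had 95% intervals within -0.51 to 0.37, which leave out a 2-fold change in either direction.

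VCAN in oocytes ranged from 323 to 3427 CPM in small pools (median 945) and from 309.5 to 2909 CPM in large pools (median 803), with 728, 1577, 2077 and 272 CPM in spontaneous pools. Highest and lowest pools differed 10.6-fold in small and 9.40-fold in large, and the log2 differences between classes were 0.12, -0.0047 and -0.12. TNFAIP6 ranged from 0.947 to 57.1 CPM in small and from 0.594 to 116 CPM in large pools, and was 5.31, 19.6, 37.8 and 3.68 CPM in spontaneous pools. PTX3 was at 0 in 3 of 16 oocyte pools and at most 17.7 CPM. The 95% intervals were wide for TNFAIP6 (-1.13 to 2.18, -1.22 to 2.15 and -1.75 to 1.63) and PTX3 (-1.32 to 2.05, -2.11 to 1.65 and -2.56 to 1.37), and all 6 held a 2-fold difference in either direction.

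CD44 in oocytes held 0.973 to 36.8 CPM in small pools (median 23.9), 9.38 to 26.2 CPM in large pools (median 14.7) and 20.2, 20.1, 13.1 and 31.4 CPM in spontaneous pools. Small pools held both the lowest and the highest values. Limma called 0 of 5 members in each of the 3 oocyte comparisons, 0 had a nominal p under 0.05, and edgeR and DESeq2 called 0 as well. Among all 10076 oocyte genes 0.655% were called from small to large, and 0.774 and 0.943% in spontaneous pools against small and large ones.

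The surrounding pathway gave a few calls in CC and none in oocytes, a contrast that was not tested. Of 41 pathway genes tested in oocytes limma called 0 in each comparison and 0 had p under 0.05. Among all oocyte genes 0.655, 0.774 and 0.943% were called, so 0 of 41 is near those shares. Of 53 tested in CC, where 0.813, 2.38 and 1.66% of all genes were called, 2 were called from small to large. There were 3 and 2 calls in spontaneous pools against small and large ones. None of these passed adjustment by limma. On recovered reads 2 did in 1 test each. GFPT1 passed from large to spontaneous pools by DESeq2 (adjusted p = 0.0209), where 9 of 9712 genes had an adjusted p under 0.05. EREG passed from small to spontaneous pools by edgeR's likelihood ratio test (adjusted p = 0.0244), where 14 of 9712 genes did.

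GFPT1 commits fructose 6-phosphate to the hexosamine pathway, which supplies sugar for hyaluronan. In CC it ranged from 29.8 to 89.6 CPM in small pools, from 77.9 to 119 CPM in large pools and from 52.4 to 65 CPM in spontaneous pools. Large pools stood above all spontaneous pools, in a comparison where 0.865% of CC genes had classes that did not overlap. GFPT1 is described because it was called, so this separation is not separate support. Large pools overlapped the small ones slightly. The means of 54.9 ± 20.0, 90.2 ± 15.7 and 56.9 ± 5.05 CPM (SD, n = 6, 6 and 5) gave a rise of 0.76 from small to large (limma p = 0.00348, adjusted p = 0.999, exact permutation p = 0.0108). From large to spontaneous GFPT1 fell by 0.64 (limma p = 0.00097, adjusted p = 0.515, exact permutation p = 0.00216). Both comparisons use the same large pools, and without large replicate 6 the first was no longer called (0.68, limma adjusted p = 1.0). GFPT1 was 1 of 7 precursor enzymes tested in CC and the only call. In oocytes it averaged 370 CPM, against 67.9 CPM in CC, with every oocyte pool above every CC pool, as 22.9% of genes had.

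CHST11 puts sulfate on chondroitin, the side chain of VCAN. It ranged from 129.96 to 169.9 CPM in small, 191 to 278 CPM in large and 166 to 514 CPM in spontaneous CC pools. Every large pool stood above every small pool, in a comparison where 0.247% of CC genes had classes that did not overlap. CHST11 is described because it was called, so this separation is not separate support. Means of 149 ± 14.97, 228 ± 32.6 and 278 ± 149 CPM (SD, n = 6, 6 and 5) gave rises of 0.60 from small to large (limma p = 0.00117, adjusted p = 0.999, exact permutation p = 0.00216) and of 0.75 from small to spontaneous (limma p = 0.00778, adjusted p = 0.418, exact permutation p = 0.00649). The first was called without each pool in turn, at 0.54 to 0.65, and lost only when all 3 classes were fitted together (adjusted p = 0.719). The second was lost without small replicate 1, 3, 4, 5 or 6 or spontaneous replicate 1 or 5 (0.49 to 0.90), and in 5 of 11 other alternatives (0.60 to 0.76 over the 11), among them both edgeR tests. CHST11 was the only call among 14 chondroitin sulfate enzymes tested in CC, whose median difference from small to large was 0.10.

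Among 15 inducers of expansion tested in CC, the EGF-like ligand EREG and ADAM17, the protease that sheds such ligands, were called. EREG was 0 to 5.83 CPM in small, 0 to 12.1 CPM in large and 2.65 to 286 CPM in spontaneous pools. Its differences of 2.62 from small (limma adjusted p = 0.39) and 3.21 from large to spontaneous (limma adjusted p = 0.549) rested partly on 1 spontaneous pool at 286 CPM. Without that pool, replicate 4, the first was 1.59 and not called. It was also not called without small replicate 2, 3, 4 or 5 or spontaneous replicate 3. ADAM17 averaged 55.3 ± 10.6 CPM in small and 80.4 ± 10.5 CPM in spontaneous pools (0.54, limma adjusted p = 0.418), a call that 7 of 11 left-out pools and 7 of 11 other alternatives ended. The cyclooxygenase PTGS2, which makes prostaglandin precursor for expansion, was not called and ran from 153 to 4167 CPM over CC pools.

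Other lists held no call in CC by limma. They were 6 hyaluronan synthases and hydrolases, 7 receptors and CD44 linkers, the proteases ADAMTS1 and ADAMTS9 with their inhibitor, and HAPLN3. Of the 7 genes on the inter-alpha-inhibitor list, 4 (ITIH2, ITIH3, ITIH4 and ITIH5) were matched by symbol in the CC table, and 0 of these passed the low-value filter. The other 3 were not analysed here. The versican proteases ADAMTS1 and ADAMTS9 were CC transcripts, at 63.4 and 332.7 CPM against 0.51 and 4.32 CPM in oocytes. ADAMTS4 was the reverse, at 1.59 CPM in CC and 26.7 CPM in oocytes. In the 3 CC comparisons the synthase and hydrolase list had 0, 0 and 1 gene with p under 0.05, the receptor list 0, 1 and 3, and the protease list 0 each.

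Genes that followed the members across the 17 CC pools were sought by Pearson correlation of log2(CPM + 1), without a test. LTBP1, a binding protein of latent TGF-beta, was nearest to VCAN (r = 0.91, rho = 0.91, r = 0.85 without the 2 farthest pools), and SLCO3A1 came next (r = 0.85). PHLDB3 (r = 0.80) and TRMT10C (r = 0.77) were nearest to HAS2. For PTX3 they were THEX1 (r = 0.87) and PDCD11 (r = 0.83), and for CD44 FABP5 (r = 0.79) and VTI1A (r = 0.76). Among those nearest to TNFAIP6 was ZBTB38 (r = 0.77). No member was among the nearest genes of another. Between members in CC, HAS2 gave r = 0.56 with TNFAIP6 (rho = 0.50, r = 0.53 without the 2 farthest pools) and r = 0.41 with VCAN (rho = 0.54, r = 0.52 without those 2). TNFAIP6 gave r = 0.53 with PTX3 (rho = 0.43), which was 0.29 without those 2. These points share depth, with which HAS2 and TNFAIP6 also moved.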

How the data were processed

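The authors trimmed single-end reads with fqtrim, aligned them to UMD3.1 with Hisat2 and assigned them to Ensembl genes with FeatureCounts. They deposited CPM, 1 file for the 16 oocyte pools and another for the 17 CC pools. In every pool 100% of the CPM values were whole multiples of the worth of 1 read (tolerance 0.01), so reads on genes were recovered. Pools were grouped by their labels. No 2 pools of a group agreed within sampling noise (a chi-square over genes of at least 60.9 per degree of freedom for oocytes and 13.4 for CC).

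A gene was retained when 4 or more oocyte pools (10076 genes), or 5 or more CC pools (9712 genes), reached 5 CPM. Pairs of classes were compared with limma 3.58.1 (trend, two-sided) on log2(CPM + 1), in R 4.3.3, with Benjamini-Hochberg adjusted p-values. A call was a nominal p of 0.01 or less, in small oocyte comparisons also without small replicate 3. Exact permutation tests compared mean CPM. The study used edgeR and DESeq2, which were run on recovered reads as alternatives (edgeR 4.0.16, DESeq2 1.42.0). Others were a smaller pseudocount (0.1), a filter on a mean of 1 CPM or none, scaling by median of ratios, CPM without mitochondrially encoded genes or the members, a fit over 3 classes, a replicate block, and omission of single pools. The fits were tested on simulated data.

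Named genes were the members, called genes of the pathway lists (at most 4 per list and comparison), the 2 genes nearest to each retained member over the CC pools, and leading markers. HAS3, HMMR, STAB2, HAPLN3, PTGS2, the ADAMTS genes, CYP17A1, INSL3, FSHR and PRSS35 were named after their values were seen. The members and lists were chosen with earlier results of these data known. Symbols came from the deposited tables. Gene overlaps came from RefSeq (ARS-UCD2.0), which differs from the authors' build, so no coordinates are given. Transcript lengths were not used, so CPM of different genes do not rank their transcript numbers. This limits the ratio of VCAN to TNFAIP6, the marker sums, the choice of leading markers and the genes of like level. Other levels are compared within a gene. One gene near TNFAIP6 in the correlation search is not reported here.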

Additional observations from a re-analysis of the deposited data

Results flagged for a closer look

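In 7 of 36 groups of 4 to 6 pools, 1 pool lay far from the rest of its group by Dixon's test on CPM without a log. That test flags about 1 in 20 groups only if values are normally distributed. CPM are skewed toward high values, and each flagged pool was the highest of its group, so the count of 7 cannot be set against that rate. Among CC pools these were HAS2 in small replicate 6 (146 CPM, next 50.5), TNFAIP6 in large replicate 4 (3024 CPM, next 1302) and CD44 in spontaneous replicate 2 (19.5 CPM, next 6.53). Among oocyte pools they were TNFAIP6 in large replicate 6 (116 CPM, next 25.5), PTX3 in spontaneous replicate 2 (17.3 CPM, next 0.986), and HAPLN1 in small replicate 3 (8.61 CPM, next 1.40) and in spontaneous replicate 3 (8.19 CPM, next 0.202). No explanation of these pools was tested.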

How the results depend on the processing

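The alternatives to the 30 member results gave 670 log2 differences, of which 588 kept their direction and their side of the nominal threshold, 12 lost a call, 6 gained one and 64 changed sign. None of those 64 passed the threshold. VCAN in CC from small to large accounts for the lost calls. Members called there fell from 1 to 0 without the filter, with a filter on a mean of 1 CPM, with scaling by median of ratios or with CPM free of mitochondrially encoded genes (log2 differences 0.71, 0.71, 0.66 and 0.62), and ran from 0 to 2 with a pool left out. From small to spontaneous CC the count was 1 in place of 0 by both edgeR tests and by DESeq2, and ran from 0 to 1 with a pool left out. The other 4 counts were 0 in every alternative. The cause of these changes was not tested.

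Sign changes among pools left out gave these ranges. In oocytes from small to large they were -0.063 to 0.12 (HAS2), -0.11 to 1.13 (TNFAIP6), -0.087 to 0.76 (PTX3), -0.20 to 0.50 (VCAN) and -0.29 to 0.56 (CD44). From small to spontaneous oocytes they were -0.20 to 0.037 (HAS2), -0.087 to 1.0 (TNFAIP6), -1.17 to 0.18 (PTX3) and -0.41 to 0.57 (VCAN). From large to spontaneous oocytes they were -0.21 to 0.028 (HAS2), -0.66 to 0.58 (TNFAIP6) and -0.52 to 0.45 (VCAN). In CC they were -0.19 to 0.18 (TNFAIP6), -0.63 to 0.11 (PTX3) and -0.42 to 0.15 (CD44) from small to large, -0.30 to 0.49 (CD44) from small to spontaneous and -0.17 to 0.62 (CD44) from large to spontaneous. Scaling by median of ratios turned HAS2 in oocytes from small to large to -0.025 and TNFAIP6 in CC from small to large to -0.011, and leaving mitochondrially encoded genes out of the total turned the latter to -0.051. With a pseudocount of 0.1 TNFAIP6 in oocytes from large to spontaneous was 0.064. Count tests turned CD44 in oocytes from small to large to -0.40 (both edgeR tests) and -0.41 (DESeq2), PTX3 in oocytes from small to spontaneous to 0.44 (both edgeR tests) and 0.43 (DESeq2), and TNFAIP6 there to -0.0052 (DESeq2).

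The labels number replicates alike across classes, but the numbers did not pair the pools. At most 1 pair per comparison correlated above 0.1, and in no comparison did every pool correlate best with its own number. The replicate block kept the VCAN call (0.71, limma adjusted p = 0.93) and gained none. It changed the sign of uncalled differences, to -0.25 (TNFAIP6) and 0.0045 (PTX3) from small to spontaneous oocytes, 0.083 (HAS2), 0.99 (TNFAIP6), 0.11 (PTX3) and 0.27 (VCAN) from large to spontaneous oocytes, and CD44 to -0.16 from small to spontaneous CC.

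Of the other named calls in CC, ADAM17 was lost without small replicate 2, 3 or 4 or spontaneous replicate 1, 3, 4 or 5 (0.46 to 0.61). PDGFRA was lost without small replicate 1, 3, 4, 5 or 6 or spontaneous replicate 1, 2, 3 or 5 (0.94 to 1.59), and in 7 of 11 other alternatives (0.79 to 1.31 over the 11). INHA was lost without large replicate 1, 3, 5 or 6 or spontaneous replicate 3, 4 or 5 (0.73 to 1.11) and in 6 of 11 others (0.74 to 0.89), and CYP19A1 without large replicate 1, 5 or 6 or spontaneous replicate 2, 4 or 5 (1.39 to 1.99) and in 9 of 11 others (1.45 to 2.66). DESeq2 gave no p for EREG. Depth limits HAPLN1 in CC, which had at most 8 reads in a pool, and those oocyte pools in which PTX3 had 0 to 2 reads.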
